A study of Mus musculus with 8 samples.

Results

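The 8 genes described here encode regional transcription factors of the gut: the GATA factors Gata4, Gata5 and Gata6, the caudal-type homeobox factors Cdx1 and Cdx2, the cut homeobox factor Onecut2, and the hepatocyte nuclear factors Hnf4a and Hnf4g. They were chosen by name, and all 8 were found among the 32285 genes of each of the 8 mouse libraries. Small intestinal organoids, which are epithelial cultures grown from intestinal stem cells, were at passage 1 and were kept alone (control) or in coculture. For each condition 16 wells were pooled and 100000 epithelial cells were sorted into 1 droplet single-cell library. The partner cells of the coculture are not named in the labels. Small and large intestine gave 1 single-cell library each, from live cells sorted to enrich Lgr5-positive stem cells and lymphatic endothelial cells. Mice of the C57BL/6 strain and, on the same background, mice with the Lgr5-eGFP-ires-CreERT2 allele, in which the stem cell gene Lgr5 drives a fluorescent reporter and a Cre recombinase, served for sorting. The remaining 4 libraries were spatial (10x Visium, immunofluorescence protocol), with 2 cryosections of 10 µm, made as technical duplicates, from each tissue. The titles of these sections carry the letters WT, read here as wild type. The age, sex and number of the mice and the segment of small intestine sampled are not given in the sources used here.

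Transcription factors of these families set and maintain the identity of the gut epithelium along its length. GATA4 is known as a factor of the proximal small intestine, where it keeps jejunal genes on and ileal genes off, while GATA6 is present in the small and the large intestine. GATA5 belongs to the same zinc finger family. CDX1 and CDX2 descend from the homeobox genes that pattern the trunk, and CDX2 is the master factor of intestinal as opposed to gastric fate. ONECUT2 is known from the duodenum and from endocrine cells, and HNF4A and its paralogue HNF4G act together on the genes of enterocyte maturation and fat absorption. In the GRCm38.p6 assembly, 5 of the genes have the following identifiers and positions: Gata4 (ENSMUSG00000021944) at chr14:63198914-63271712, Gata5 (ENSMUSG00000015627) at chr2:180325088-180335503, Cdx2 (ENSMUSG00000029646) at chr5:147300900-147307249, Hnf4a (ENSMUSG00000017950) at chr2:163506811-163572907, and Hnf4g (ENSMUSG00000017688) at chr3:3508030-3659800. The identifiers of the others are ENSMUSG00000005836 for Gata6, ENSMUSG00000024619 for Cdx1 and ENSMUSG00000045991 for Onecut2.

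The libraries held between 24356162 and 142501907 unique molecular identifiers (UMIs, each a captured RNA molecule). After filters, 538 control and 1028 cocultured organoid cells, 2695 small intestinal and 5882 large intestinal cells, and 2094 to 2571 Visium spots per section remained. In the small intestinal library 5497 of 8842 barcodes were removed for a high mitochondrial share, against 2060 of 8646 in the large intestinal library. The tissue libraries shared 25 barcodes and the organoid libraries 0. Epithelial cells were taken as cells with a UMI of Epcam, the epithelial adhesion molecule: 1821 cells of the small and 5016 of the large intestine, at median depths of 24418 and 24340.5 UMIs. Of these, 302 (16.6%) and 677 (13.5%) lay in clusters of other cell types. Levels are given in CPM, the UMIs of a gene per 1000000 UMIs of the cells or spots named, and ratios as log2 ratios of CPM. Each carries a 95% interval that covers counting error only. With 1 library per tissue or condition no difference has a replicate check across animals or cultures and no test was made.

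Between the Epcam-positive cells of the 2 tissues, the factors differed in direction. Gata4, Gata5 and Onecut2 were present in the small intestine and close to undetected in the large intestine, Hnf4a and Hnf4g were higher in the small intestine, Cdx1 and Cdx2 were higher in the large intestine, and Gata6 was less than 2-fold higher in the small intestine. In all, 4 of 8 factors were past 2-fold, and all 4 were higher in the small intestine. Of the 17350 genes that reached 10 UMIs in the higher tissue, 26.2% were past 2-fold, 10.2% higher in the small and 16% higher in the large intestine. The median log2 ratio of small over large intestine was 1.32 over the 8 factors and -0.28 over all genes.

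Among the GATA factors, Gata4 stood at 24.7 CPM in small intestinal and 0.0503 CPM in large intestinal epithelial cells. These levels rest on 1194 and 6 UMIs, and the small intestinal level was 490-fold higher (log2 ratio 8.94, interval 7.81 to 10.39). A UMI of Gata4 was found in 635 of 1821 cells and in 5 of 5016 cells. Gata5 had 21.6 CPM in the small and 0.528 CPM in the large intestine, from 1044 and 63 UMIs, a 40.8-fold difference (log2 ratio 5.35, interval 4.99 to 5.74). Gata6 was found in both tissues, with 75.8 CPM in the small and 60.5 CPM in the large intestine (log2 ratio 0.32, interval 0.27 to 0.38). So the tissues were separated by Gata4 and Gata5 and differed by less than 2-fold in Gata6. Of the GATA factors of other lineages (Gata1, Gata2 and Gata3, known from blood cells), 2 had enough UMIs and 0 were past 2-fold.

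Onecut2 had the largest ratio of the 8 in these cells, with an interval that overlapped that of Gata4. Its level was 57.8 CPM from 2799 UMIs in the small intestine, and in the large intestine 8 UMIs gave 0.0671 CPM, which is 862-fold (log2 ratio 9.75, interval 8.77 to 10.97). The 2799 UMIs came from 716 cells, and no cell held more than 1.21% of them.

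Both caudal-type factors were higher in the large intestine, Cdx1 more so. Cdx1 measured 109 CPM in the small and 213 CPM in the large intestine, 1.95-fold higher in the latter (log2 ratio -0.96, interval -1.0 to -0.92). Cdx2 measured 101 and 129 CPM (log2 ratio -0.36, interval -0.40 to -0.31). When ratios were centred on the median of all genes, Cdx2 was at -0.08. Neither reached 2-fold as counted here, and Cdx1 did so when mitochondrial and ribosomal protein genes were left out of the totals (log2 ratio -1.08).

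Both nuclear receptors were higher in the small intestine. Hnf4a had 147 CPM there against 77.0 CPM in the large intestine (1.91-fold, log2 ratio 0.94, interval 0.89 to 0.98, and 1.21, past 2-fold, when centred on the median of all genes), and Hnf4g had 118 against 36.1 CPM (3.26-fold, log2 ratio 1.71, interval 1.65 to 1.76). Antisense transcripts overlap Hnf4a and Gata5, and whether the counting used strand is not given in the sources used here. The antisense genes Hnf4aos and Gata5os were listed at 1.07 and 0.641 CPM in the small intestine and at 0.0838 and 0.00838 CPM in the large intestine.

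**Figure D1:**
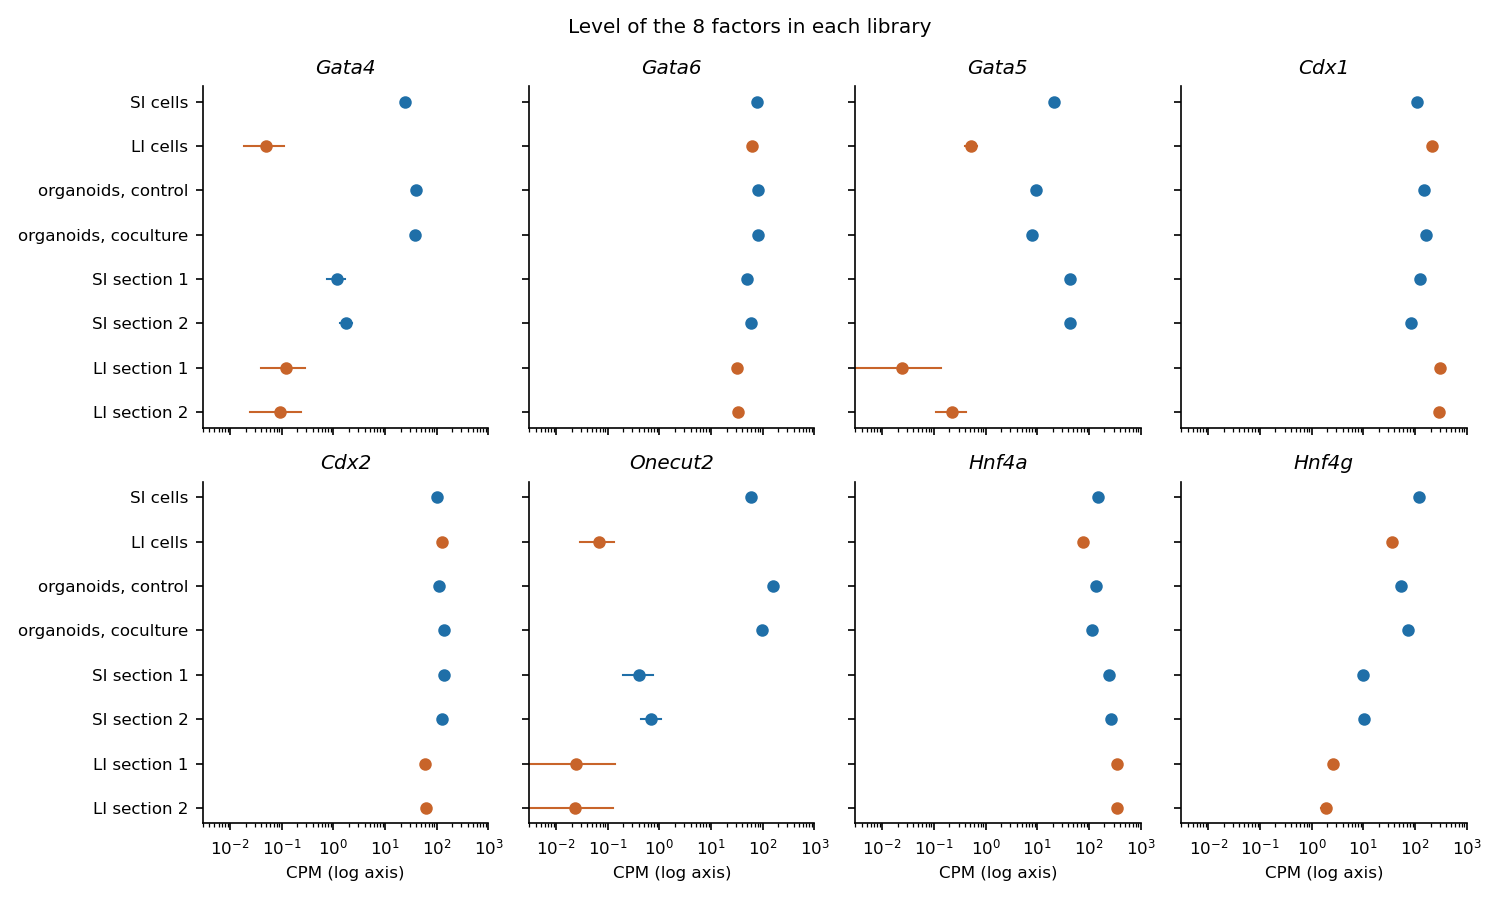
Level of each of the 8 factors in the 8 libraries, in CPM on a log axis, with 95% Poisson intervals (counting error only); organoid and small intestinal libraries are blue and large intestinal libraries orange, and the single-cell tissue libraries are restricted to Epcam-positive cells. Gata4, Gata5 and Onecut2 lie at or under 0.528 CPM in all 3 large intestinal libraries, whereas Gata6, Cdx1, Cdx2 and Hnf4a lie between 32.2 and 350 CPM in all 8.

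The share of cells with a UMI was compared after every cell was thinned to 2000 UMIs, which kept 1750 small intestinal and 4566 large intestinal epithelial cells. Gata4 was then found in 3.37% of the small intestinal cells (34.9% before thinning) and in 0 of 4566 large intestinal cells (0.0997% before thinning), where 3 cells, the limit that a count of 0 allows at this depth, would be 0.0657%. Gata5 was found in 5.09% and 0.131%, and Onecut2 in 8.80% and 0.0219%. Free RNA in droplets sets a background, which was read from Epcam-negative cells with a UMI of the leukocyte gene Ptprc. At the same depth these held Gata4 and Gata5 in 0 of 360 small intestinal cells, which allows up to 0.833%, and Onecut2 in 0.833%. Their median depths before thinning were lower, at 3009 UMIs in the small and 4025 UMIs in the large intestine. In the large intestine, the thinned shares of Gata6 (9.99%), Cdx1 (30.2%), Cdx2 (19.1%), Hnf4a (13.2%) and Hnf4g (5.98%) were all above those of the 221 Ptprc-positive cells of the same library, where the highest was 1.81% for Cdx2.

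Cell classes were compared between tissues next, since sorting set the makeup of each library. Clusters were named from fixed marker lists and carry the ending "-like"; 4 large intestinal clusters met fewer of the markers of their name than they lacked. These were the stem-like cluster of 308 cells (3 of 8 markers), a goblet-like cluster of 554 cells led by Cma1 and Best2 (3 of 8), a cycling-like cluster of 217 cells (4 of 9) and a colonocyte-like cluster of 115 cells (3 of 9). The 217 cells were led by Ces1g and St3gal5, with no cycling marker among the 10 leading genes, and at the coarser resolution of 0.5 Ces1g led a colonocyte-like cluster. The split of Gata4, Gata5 and Onecut2 between the tissues was seen in each class present in both. Members past 2-fold numbered 4 of 8 in stem-like cells, where 16.3% of all genes were, and 5 of 8 in cycling-like cells (18.5% of all genes) and in goblet-like cells (21.4%). In tuft-like cells they numbered 3 of 8 (19.3% of all genes) and in enteroendocrine-like cells 5 of 8 (35.9%), which became 2 of 8 (24.3%), Gata4 and Onecut2, at both other clustering resolutions. At the main resolution all of these were higher in the small intestine except Cdx1 in enteroendocrine-like cells, where Gata5, with 8 UMIs against 1, was under the minimum of 10 UMIs. Without the weakly marked clusters, an alternative chosen after the data were seen, the count stayed at 5 of 8 in cycling-like cells (20.4% of all genes) and fell to 3 of 8 in goblet-like cells (18.6%), where Gata4, Gata5 and Onecut2 were still past 2-fold.

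In stem-like cells, Gata4 had 80 UMIs in 173 small intestinal cells and 0 UMIs in 308 large intestinal cells, at least 5.71 log2 units higher when the 0 is set to 3 UMIs. The counting interval, which covers the error of both counts, starts at 5.38. Onecut2 had 413 UMIs and 1 UMI there (log2 ratio 9.66, interval 7.17 to 14.97), and Gata5 108 and 4 UMIs (log2 ratio 5.73, interval 4.33 to 7.63). In cycling-like cells, Onecut2 had 951 UMIs and 1 UMI (log2 ratio 11.05, interval 8.57 to 16.36) and Gata4 386 UMIs and 1 UMI (9.75, interval 7.26 to 15.06). The secretory classes showed the same split. In goblet-like cells Onecut2 had 210 UMIs in the small and 0 in the large intestine, at least 8.38 log2 units higher with the 0 set to 3 UMIs (the interval starts at 8.07). In the enteroendocrine-like cells, the hormone-producing class, it had 72 and 0 UMIs, at least 7.71 log2 units higher on the same terms (from 7.38), in 32 and 135 cells. The large intestinal class held 42 cells in place of 135 at both other clustering resolutions (0.5 and 2), again with 0 UMIs of Onecut2, which is then at least 4.90 log2 units higher in the small intestine (from 4.56). Gata4 had 25 and 0 UMIs in tuft-like cells, the chemosensory class, at least 2.70 log2 units higher (from 2.30).

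For the other factors the ratio varied more among classes. Hnf4a was higher in the small intestine in all 5 classes, with log2 ratios of 1.22 in stem-like, 1.36 in cycling-like, 1.10 in goblet-like, 0.88 in tuft-like and 1.13 in enteroendocrine-like cells. Hnf4g ranged from -0.13 in tuft-like cells (interval -0.68 to 0.43) to 1.56 in enteroendocrine-like cells (interval 0.93 to 2.15, and 0.67 at the other resolutions, where Hnf4a in that class was at 0.83). Cdx1 was higher in the large intestine in stem-like (log2 ratio -0.60), cycling-like (-0.59), goblet-like (-0.44) and enteroendocrine-like cells (-1.30, interval -1.80 to -0.84). The last of these rested on the clustering: Cdx1 had 88.7 CPM in small intestinal enteroendocrine-like cells, against 218 CPM in the 135 large intestinal cells and 98.9 CPM in the 42 cells of the other resolutions. In those 42 cells Cdx2 had 89.7 in place of 153 CPM, Gata6 110 in place of 71.6 CPM and Hnf4g 45.8 in place of 24.7 CPM. In tuft-like cells Cdx1 measured 317 CPM in the small and 297 CPM in the large intestine, with an interval of the log2 ratio from -0.10 to 0.29. Cdx2 was higher in the large intestine in the crypt classes, with 225 against 126 CPM in stem-like and 240 against 153 CPM in cycling-like cells. At resolution 2 the cycling-like levels were closer, at 168 against 152 CPM (log2 ratio -0.14, interval -0.22 to -0.06). In goblet-like, tuft-like and enteroendocrine-like cells the interval of the Cdx2 log2 ratio included 0 at the main resolution. At both other resolutions Cdx2 in enteroendocrine-like cells was higher in the small intestine (log2 ratio 0.81, interval 0.26 to 1.36). In goblet-like cells it was at 0.19 (interval 0.01 to 0.37) at resolution 0.5 and at -0.53 (interval -0.71 to -0.35) at resolution 2. Without the cluster led by Cma1, however, Cdx2 in goblet-like cells was higher in the large intestine, at 92.2 CPM (log2 ratio -0.58, interval -0.76 to -0.39), and Hnf4a had a log2 ratio of 0.86 and Hnf4g of 0.84 there. Gata6 was between 0.12 log2 units (tuft-like) and 0.82 log2 units (goblet-like) higher in the small intestine at the main resolution. In enteroendocrine-like cells its log2 ratio was -0.04 (interval -0.62 to 0.53) at both other resolutions.

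**Figure D2:**
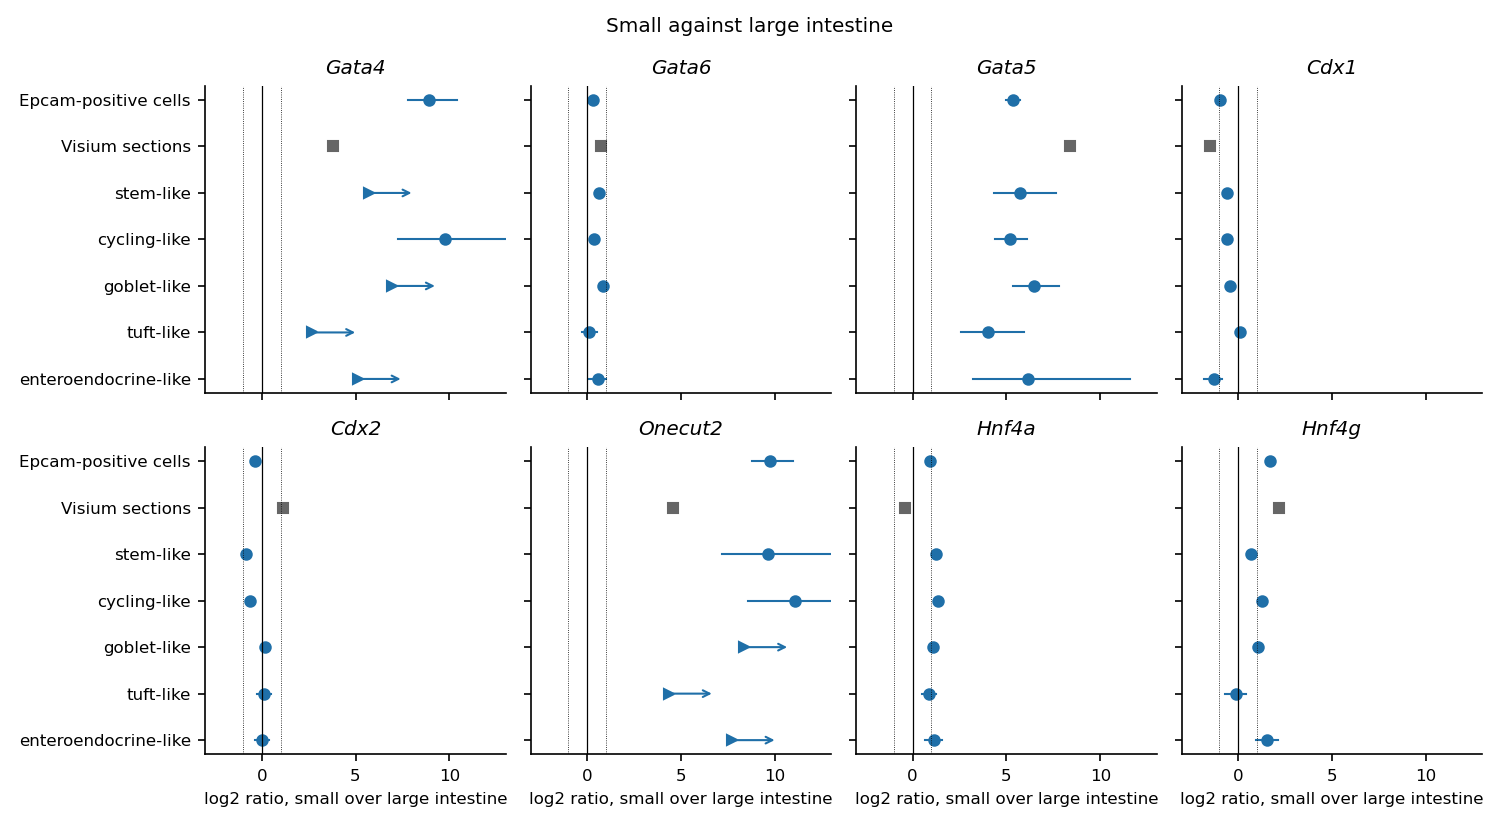
Log2 ratio of small over large intestine for each factor in Epcam-positive cells, in 5 epithelial classes and in the Visium sections (grey squares, no interval drawn); bars are 95% intervals for counting error, cut at the end of the axis, triangles with arrows are lower bounds where the large intestinal count was 0 and was set to 3, and dotted lines mark 2-fold. Gata4, Gata5 and Onecut2 lie at or above 2.70 in all comparisons, and Cdx2 and Hnf4a change sides of 0 between the Epcam-positive cells and the sections.

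The Visium sections gave the same comparison in intact tissue. Each spot covers several cells, and the sections include muscle and stroma, so that fewer cells of a type and less RNA per cell cannot be told apart. Of the 8 factors, 6 were past 2-fold with sections that did not overlap between tissues, 5 higher in the small and 1 in the large intestine. The same rule took 31.5% of 17318 genes, 16.3% higher in the small and 15.2% higher in the large intestine.

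Gata5 had 42.3 and 43.4 CPM in small intestinal sections, against 0.0242 and 0.228 CPM in large intestinal sections, from 1030, 1307, 1 and 10 UMIs. The small intestinal mean was 340-fold higher (log2 ratio 8.41, interval 7.53 to 9.38 from the summed counts). Gata4 was low in both tissues here, with 1.15 and 1.76 CPM (28 and 53 UMIs) in small intestinal sections, against 0.121 and 0.0913 CPM (5 and 4 UMIs) in large intestinal sections, a 13.7-fold difference (log2 ratio 3.78, interval 2.82 to 4.99). Onecut2 was lower still relative to the dissociated cells, at 0.411 and 0.698 CPM (10 and 21 UMIs) in the small intestinal sections against 57.8 CPM in the Epcam-positive cells. With 1 UMI in each large intestinal section its log2 ratio was 4.56 (interval 2.62 to 7.71). Gata6 had 49.5 and 59.6 CPM in small intestinal sections, against 32.2 and 32.8 CPM in large intestinal sections (log2 ratio 0.75), so that its sections did not overlap but its ratio stayed under 2-fold.

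Cdx1 was the member past 2-fold in the other direction. It had 126 and 83.2 CPM in small intestinal sections, against 304 and 297 CPM in large intestinal sections, 2.87-fold higher in the latter (log2 ratio -1.52). Cdx2 had 137 and 124 CPM in small intestinal sections, against 58.0 and 60.6 CPM in large intestinal sections, 2.20-fold higher in the small intestine (log2 ratio 1.13), whereas in Epcam-positive cells it was higher in the large intestine. Without mitochondrial and ribosomal protein genes in the totals, the Cdx2 log2 ratio in the sections was 0.989, under 2-fold. Hnf4a had 247 and 271 CPM in small intestinal sections, against 345 and 350 CPM in large intestinal sections (log2 ratio -0.42), also opposite to its direction in the cells. Hnf4g kept its direction, with 9.77 and 10.5 CPM against 2.62 and 1.89 CPM (4.49-fold, log2 ratio 2.17). In both tissues these levels were under those of the Epcam-positive cells, 118 CPM in the small and 36.1 CPM in the large intestine.

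The sections differed in the genes of other tissues as well. Summed over 4 smooth muscle genes (Myh11, Acta2, Des and Actg2, all 4 past 2-fold), the small intestinal sections had 7023 and 9510 CPM and the large intestinal sections 1591 and 1556 CPM. The 6 epithelial genes (Epcam, Krt8, Krt18, Cdh1, Krt19 and Cldn7) summed to 9571 and 8737 CPM in small intestinal sections, against 12236 and 12598 CPM in large intestinal ones, and 4 immune genes (Ptprc, Cd3e, Cd79a and Lyz2) to 78.2 and 80.0 CPM against 410 and 393 CPM. Neither list moved as one. Of the epithelial genes Krt19 (log2 ratio -1.79) was past 2-fold and Krt8 was at -0.70, while Epcam was at 0.52 and the median of the list at 0.17. Of the immune genes Lyz2 (-2.94) and Cd79a (-1.25) were past 2-fold higher in the large and Cd3e (1.64) in the small intestine. The part of these in the ratios was not tested. When only spots at or under the median muscle share of their section were used, a comparison added after the data were seen, 6 factors were again past 2-fold. The log2 ratio was then 1.16 for Cdx2, -0.19 for Hnf4a and -1.37 for Cdx1.

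Genes of the proximal and the ileal small intestine stood at different levels in the sections and in the dissociated cells, whose segment of origin is not given. Summed over 6 ileal enterocyte genes (Fabp6, Slc10a2, Slc51a, Slc51b, Fgf15 and Clec2h, most of them genes of bile acid uptake), the small intestinal sections had 10116 and 10054 CPM. Summed over 7 proximal enterocyte genes (Fabp1, Apoa4, Lct, Gsta1, Adh6a, Ms4a10 and Rbp2), they had 438 and 527 CPM. The Epcam-positive small intestinal cells had 2164 CPM of the ileal and 2781 CPM of the proximal genes. The organoids had 58.9 CPM (control) and 65.2 CPM (coculture) of the ileal and 7827 and 10958 CPM of the proximal genes. The part of these differences in the low levels of Gata4, Onecut2 and Hnf4g in the sections was not tested.

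Genes that these factors are known to act on were compared in the same libraries, where 10.2% of all genes were past 2-fold higher in small and 16% in large intestinal cells. Of 12 genes of fat absorption linked to HNF4, 10 were past 2-fold higher and 1 lower in small than in large intestinal epithelial cells (median log2 ratio 4.96, with counts under 3 set to 3). Apoa4, an apolipoprotein of chylomicrons, had 150 CPM in the small intestine and 0 UMIs in the large intestine, and Apoc3 had 83.4 against 0.143 CPM. Fabp1, the liver-type fatty acid binding protein, had 1294 against 0.671 CPM. Of 8 intestinal genes linked to CDX2, 6 were higher and 1 lower (median log2 ratio 1.90), with 44.9 against 1.02 CPM for the alkaline phosphatase Alpi and 184 against 38.2 CPM for the glucose transporter Slc5a1. Cdx1 and Cdx2 themselves were higher in the large intestine in these cells. In the sections, where 16.3% of all genes were higher and 15.2% lower in the small intestine, the same lists gave 10 higher and 1 lower of 12, and 6 higher and 0 lower of 8. Of 10 colon epithelial genes 8 were higher and 1 lower in large than in small intestinal cells, among them the carbonic anhydrase Car1 with 1146 CPM against 0 UMIs. Which factor acted on these genes was not tested.

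The upstream sequences of 3 genes of the lists used here are shown. They are Lct (lactase, proximal list), Sis (sucrase-isomaltase, CDX2-linked list, along the small intestine) and Fabp6 (the ileal bile acid binding protein, ileal list). Each run is the 250 bases before the RefSeq start on the gene's strand in GRCm38.p6, from chr1:128328319-128328568 (minus strand) for Lct, chr3:72967864-72968113 (minus strand) for Sis and chr11:43601563-43601812 (minus strand) for Fabp6. Capitals mark letters that match a GATA motif (AGATAA or TGATAA or AGATAG or TGATAG) or a CDX motif (TTTATG or TTTATTG) on either strand.
Lct: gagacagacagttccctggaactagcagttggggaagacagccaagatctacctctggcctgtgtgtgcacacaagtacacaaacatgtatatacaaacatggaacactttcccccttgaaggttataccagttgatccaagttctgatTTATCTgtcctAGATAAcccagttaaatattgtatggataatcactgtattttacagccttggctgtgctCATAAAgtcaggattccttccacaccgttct
Sis: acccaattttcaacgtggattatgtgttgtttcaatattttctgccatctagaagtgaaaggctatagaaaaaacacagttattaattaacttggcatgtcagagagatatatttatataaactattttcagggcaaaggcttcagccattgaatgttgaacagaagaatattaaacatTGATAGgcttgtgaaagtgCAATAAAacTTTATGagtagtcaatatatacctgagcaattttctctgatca
Fabp6: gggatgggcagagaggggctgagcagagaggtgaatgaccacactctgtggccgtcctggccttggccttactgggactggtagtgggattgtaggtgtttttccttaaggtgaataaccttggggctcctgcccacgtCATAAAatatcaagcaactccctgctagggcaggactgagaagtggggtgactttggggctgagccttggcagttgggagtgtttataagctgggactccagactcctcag
The Lct sequence held 2 GATA matches, at bases 101 to 96 and 90 to 85 before the start, and 1 CDX match at bases 31 to 26. The Sis sequence held 1 GATA match at bases 71 to 66 and 2 CDX matches at bases 52 to 46 and 43 to 38, and the Fabp6 sequence held 1 CDX match at bases 111 to 106 and no GATA match. No match overlapped another, and none of the 3 sequences held the HNF4 motifs searched (CAAAGTCCA or CAAAGGTCA). Among 32851 RefSeq promoters of the same length, 26.5% held a GATA match, 14.3% a CDX match and 0.807% an HNF4 match, so that a match describes the letters and not a binding site. Of the 8 factors, 3 had an entry in the same table: Gata5, Cdx2 and Hnf4a. Of the 2 starts listed for Hnf4a the first held 1 GATA match, 52 to 47 bases upstream, and the second, like the starts of Gata5 and Cdx2, held none of the motifs.

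The 3 genes with printed sequences differed widely among the libraries. Lct had 25.1 CPM in small intestinal Epcam-positive cells and 2 UMIs (0.0168 CPM) in those of the large intestine, 11.5 and 14.4 CPM in control and cocultured organoids, and 0.534 and 0.665 CPM in the small intestinal sections. Sis had 422 CPM in small intestinal cells, 1.2 CPM in large intestinal cells, 225 and 401 CPM in the organoids, and 562 and 610 CPM in the small intestinal sections. Fabp6 had 1588 CPM in small intestinal cells, 74.0 CPM in large intestinal cells, 0.924 and 1.2 CPM in the organoids, and 5815 and 5149 CPM in the small intestinal sections. Thus Sis was found wherever small intestine was sampled, while Lct was highest in the dissociated cells and Fabp6 in the sections.

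Within the small intestine the factors differed among epithelial classes. Gata4 had similar levels in enterocyte-like cells (39.0 CPM, interval 35.3 to 42.9, 379 cells) and cycling-like cells (36.9 CPM, interval 33.3 to 40.7, 341 cells). It was lower in stem-like (21.1 CPM, 173 cells), tuft-like (15.9 CPM, 99 cells) and goblet-like cells (14.9 CPM, 224 cells), whose intervals overlapped each other, and lowest in Paneth-like cells (5.05 CPM, interval 3.70 to 6.73, 203 cells), the antimicrobial cells of the crypt base. Gata5 was ordered otherwise, with the highest level in tuft-like cells at 52.0 CPM (interval 41.4 to 64.6) and no overlap with the next class at 30.3 CPM. Gata6 was highest in stem-like cells at 121 CPM, overlapping enteroendocrine-like cells at 107 CPM.

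Cdx1 had its highest level in tuft-like cells, at 317 CPM (interval 289 to 346), above cycling-like (167 CPM), stem-like (158 CPM) and goblet-like cells (158 CPM), which did not differ beyond their intervals. Enterocyte-like cells had 84.5 CPM. Cdx2 was nearly level over enteroendocrine-like (157 CPM), cycling-like (153 CPM) and enterocyte-like cells (149 CPM), and lower in tuft-like (88.8 CPM) and goblet-like cells (61.8 CPM). Tuft-like cells were thus the highest class for Cdx1 and among the lower ones for Cdx2. Onecut2 was highest in enteroendocrine-like cells at 164 CPM (interval 128 to 206), then in stem-like (109 CPM), cycling-like (90.8 CPM) and enterocyte-like cells (75.4 CPM), with no overlap between neighbours. Hnf4a was highest in cycling-like cells at 238 CPM, then 204 CPM in stem-like and 169 CPM in enterocyte-like cells. Hnf4g was highest in enterocyte-like cells at 249 CPM, against 119 CPM in cycling-like and 90.7 CPM in stem-like cells.

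Paneth-like cells of the small intestine had the lowest level of each of the 8 factors, from 5.05 CPM for Gata4 to 26.3 CPM for Hnf4a. For Gata5 (7.13 CPM, interval 5.5 to 9.09) the interval overlapped that of enteroendocrine-like cells (18.2 CPM from 8 UMIs, interval 7.85 to 35.8). In these cells 56.5% of all UMIs came from the 8 Paneth marker genes (lysozyme and defensin genes among them), against 3.55% in goblet-like cells and at most 0.470% in the other named small intestinal classes, and CPM is a share of the total. In the organoids the same 8 genes took 11.3% of the UMIs of Paneth-like cells. Among the 5 named classes of the organoids, Paneth-like cells were again lowest for Gata4 (27.6 CPM), Gata6 (60.4 CPM), Cdx2 (80.9 CPM), Hnf4a (108 CPM) and Hnf4g (22.2 CPM). For Gata4, Gata6 and Hnf4a the interval overlapped that of stem-like cells. They were not lowest for Cdx1 (143 CPM) and Onecut2 (130 CPM), and had the highest value for Gata5 (12.6 CPM, an interval that overlapped the next).

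In the large intestine Gata4 and Onecut2 were at or under 0.286 CPM in all 10 epithelial classes and clusters. The highest class for Gata5 was again the tuft-like one, at 3.25 CPM from 4 UMIs (interval 0.885 to 8.32), an interval that overlapped the next. Cdx1 was between 178 and 297 CPM in all of them, also with its highest value in tuft-like cells, whose interval overlapped that of an unnamed cluster at 279 CPM. Cdx2 spanned a wider range, from 240 CPM in cycling-like and 225 CPM in stem-like cells to 54.7 CPM in goblet-like cells (92.2 CPM without the cluster led by Cma1) and 30.4 CPM in an unnamed cluster of 451 cells led by Defb45 and Fut9, where Cdx1 measured 256 CPM. Hnf4a was highest in colonocyte-like cells, the absorptive class, at 146 CPM (interval 139 to 152), with no overlap with cycling-like cells at 92.7 CPM. Hnf4g was highest in stem-like cells at 55.4 CPM, overlapping colonocyte-like cells at 49.8 CPM. Gata6 was between 44.8 and 79.2 CPM. Outside the epithelium Gata6 also measured 75.0 CPM in 33 fibroblast-like cells of the small intestine, 33.3% of which had an Epcam UMI, and 12.7 CPM in 303 fibroblast-like cells of the large intestine.

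**Figure D3:**
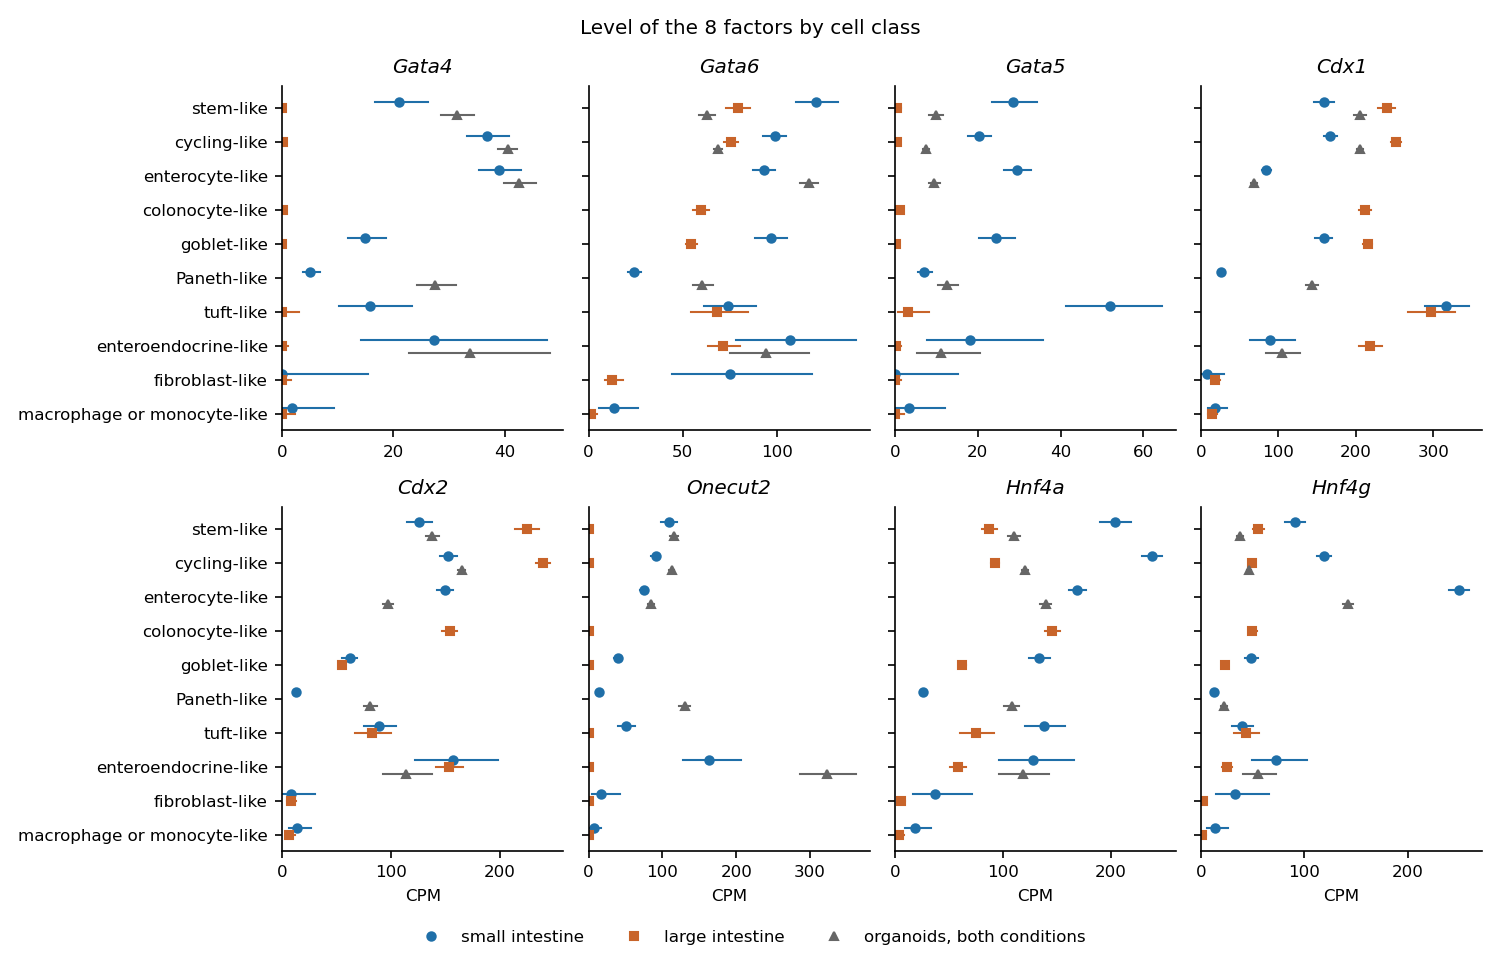
Level of each factor in cell classes of the small intestine (blue circles), the large intestine (orange squares) and both organoid libraries together (grey triangles), in CPM, with 95% Poisson intervals (counting error only). Among epithelial classes, Paneth-like cells are lowest for all 8 factors in the small intestine (for Gata5 with an interval that overlaps enteroendocrine-like cells), tuft-like cells are highest for Cdx1 and Gata5 in the small intestine (for the large, their intervals overlap those of the next cluster), and enteroendocrine-like cells are highest for Onecut2 in the small intestine (164 CPM) and in the organoids (323 CPM).

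The enterocyte-like cells of the small intestine were then split by segment genes that are not members: 111 cells were of ileal type, with a higher summed level of the ileal than of the proximal genes, and 265 of proximal type, out of 379, and 57 lay within 2-fold of the boundary. Of the 8 factors 2 were past 2-fold between the types, while 8.43% of 10181 genes were, and the median log2 ratio of all genes was 0.05. Onecut2 had 8.68 CPM in ileal-type and 97.4 CPM in proximal-type cells, from 23 and 783 UMIs in 8 and 181 cells (log2 ratio -3.49, interval -4.15 to -2.89). Gata4 had 18.5 and 45.8 CPM, from 49 and 368 UMIs (log2 ratio -1.31, interval -1.77 to -0.87). Both were therefore lower in cells with ileal genes.

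The other GATA factor of the small intestine, Gata5, went the other way, with 40.0 CPM in ileal-type and 26.0 CPM in proximal-type cells (log2 ratio 0.62, interval 0.27 to 0.97). Cdx1 was also higher in ileal-type cells, at 133 against 68.5 CPM (log2 ratio 0.96, interval 0.76 to 1.15). Cdx2 (174 against 141 CPM), Gata6 (74.8 against 99.0 CPM), Hnf4a (196 against 160 CPM) and Hnf4g (231 against 256 CPM) differed less, with log2 ratios between -0.40 and 0.30. The depth of the types differed, with medians of 22645 and 31558 UMIs per cell. By cluster, Onecut2 had 10.6 CPM in the enterocyte-like cluster led by Fabp6, which held 105 of the 111 ileal-type cells, 111 CPM in that led by Adh4 (6 ileal-type and 161 proximal-type cells) and 70.2 CPM in that led by Cyp2b10 (0 and 65). Gata4 had 17.7, 49.4 and 40.4 CPM in these clusters, so that the cluster without ileal-type cells was not the highest for either. When every Epcam-positive small intestinal cell was split the same way, Onecut2 stayed past 2-fold (log2 ratio -2.05) and Gata4 did not (-0.96). When only cells with the lists over 10 times apart were used, Onecut2 was at -4.62 and Gata4 at -1.91. Cdx1 was then past 2-fold (1.18), and Hnf4g changed sign (0.09).

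Position along the crypt to surface axis was read in the sections, where mucosal spots were ranked by surface genes and divided into 3 equal parts, with each spot thinned to 2000 UMIs. In the small intestine the ranking was coarse: the bottom part held 0 UMIs of the surface genes in both sections, and in the first section so did the middle part. The top part of the first section also included spots with 0 of these UMIs, so the parts there divided tied spots. Comparing the top with the bottom part, 5 of the 8 factors reached 10 UMIs in the small intestinal sections and 0 of these 5 were past 2-fold in either, where 11.4% and 19.9% of genes with that minimum were. In the large intestinal sections 4 factors reached it, and 1 and 2 of these 4 were past 2-fold, against 39.3% and 40.4% of genes.

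Cdx1 was lower in the top than in the bottom part of all 4 sections. It had 105 CPM at the top and 150 CPM at the bottom of the first small intestinal section (log2 ratio -0.52, interval -0.97 to -0.08) and 87.3 and 128 CPM in the second (-0.55, interval -1.0 to -0.11). In the large intestine it had 147 and 404 CPM in the first section (log2 ratio -1.46) and 174 and 417 CPM in the second (-1.26). Hnf4a was higher at the surface in all 4, with 319 against 246 CPM and 409 against 263 CPM in the small intestine, and 523 against 264 CPM and 526 against 241 CPM in the large intestine (log2 ratios 0.38, 0.64, 0.99 and 1.12). Epcam was also higher in the top part in all 4, with log2 ratios of 0.44 and 0.47 in the small and 0.55 and 0.52 in the large intestine (against 0.38 for Hnf4a in the first small intestinal section). The part of epithelial content in the Hnf4a ratios was not tested. The median log2 ratio of all genes was -0.11 and -0.25 in the small and -0.44 and -0.42 in the large intestinal sections. For Cdx2 the log2 ratio was -0.44 (interval -0.85 to -0.02) and -0.10 in the small and 0.48 and 0.50 in the large intestinal sections, and the last 3 intervals included 0. For Gata6 the log2 ratio was 0.44 and 0.41 in the small and -0.51 and -0.96 in the large intestinal sections, of which only the last had an interval without 0 (-1.82 to -0.15). Gata4, Onecut2 and Hnf4g had too few UMIs in these spots to be compared, with at most 9 in a top or bottom part, and Gata5 had 0 there in the large intestine.

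**Figure D4:**
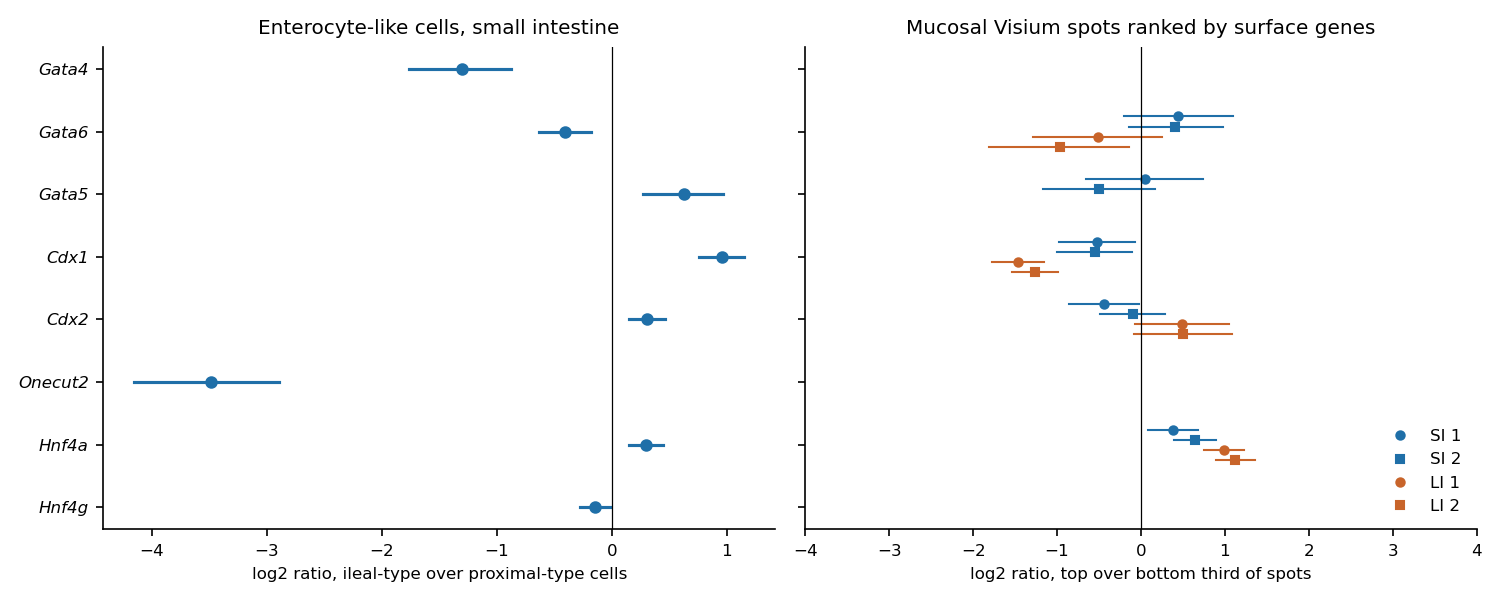
Left, log2 ratio of each factor in ileal-type over proximal-type enterocyte-like cells; right, log2 ratio of the top over the bottom of 3 parts of the mucosal spots in each Visium section; blue is small and orange large intestine, circles and squares are the first and second sections, and bars are 95% intervals for counting error; ratios with too few UMIs are left out. Onecut2 and Gata4 are lower in the ileal type (log2 ratios -3.49 and -1.31), and Cdx1 lies under 0 and Hnf4a above 0 in all 4 sections.

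In the organoids the question was whether coculture changed the factors. None of the 8 was past 2-fold between cocultured and control organoids (0 of 8, against 8.77% of 14224 genes, 3.28% higher in coculture and 5.5% higher in control), and the median log2 ratio of all genes was -0.10. The GATA factors nearly undetected in the large intestine were present here: Gata4 had 38.7 CPM in coculture and 39.8 CPM in control (log2 ratio -0.04, interval -0.12 to 0.04), and Gata5 had 7.78 and 9.31 CPM (-0.26, interval -0.44 to -0.08). Gata6 had 79.6 and 79.1 CPM (log2 ratio 0.01, interval -0.05 to 0.07).

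Onecut2 differed most, at 95.8 CPM in coculture and 157 CPM in control, 1.63-fold lower in coculture (log2 ratio -0.71, interval -0.75 to -0.66). Its share of cells after thinning to 10000 UMIs was 55.8% of 919 cocultured and 67.7% of 449 control cells (88.9% and 84.6% before thinning). Hnf4a was also lower in coculture, at 116 against 140 CPM (log2 ratio -0.27, interval -0.31 to -0.22), while its paralogue Hnf4g was higher, at 73.2 against 53.1 CPM (0.46, interval 0.39 to 0.53). Cdx2 had 136 and 113 CPM (log2 ratio 0.28, interval 0.23 to 0.32) and Cdx1 165 and 151 CPM (0.13, interval 0.08 to 0.17). All these differences were under 2-fold, and a spread between cultures, against which they could be read, was not measured.

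Within classes of the organoids, compared after the data were seen, Onecut2 was lower in coculture in all 4 classes: by log2 ratios of -0.64 in Paneth-like cells (57 cocultured and 28 control cells), -0.46 in cycling-like, -0.64 in enterocyte-like and -0.47 in stem-like cells. Hnf4a was -1.07 in Paneth-like cells (interval -1.27 to -0.88), the 1 factor past 2-fold in any of these classes, -0.46 in enterocyte-like, -0.25 in cycling-like and -0.03 in stem-like cells (interval -0.17 to 0.12). In Paneth-like cells the median log2 ratio of all genes was -0.25, and relative to it Hnf4a was at -0.82, under 2-fold, and Onecut2 at -0.39. In the other 3 classes that median lay between -0.06 and 0.01. Past 2-fold were 9.87% of all genes in Paneth-like, 3.13% in cycling-like, 5.09% in enterocyte-like and 3.81% in stem-like cells. Hnf4g was higher in coculture over all cells but had log2 ratios of -0.17 in enterocyte-like, -0.09 in Paneth-like, 0.27 in cycling-like and 0.22 in stem-like cells, so that its sign was not the same among classes. The makeup of the libraries differed: stem-like cells were 76 of 538 control and 81 of 1028 cocultured cells and enterocyte-like cells 54 and 185, and the part of this in the ratios over all cells was not tested. In Epcam-positive cells, the 6 epithelial genes also differed, with a summed 11500 CPM in control and 7800 CPM in coculture.

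**Figure D5:**
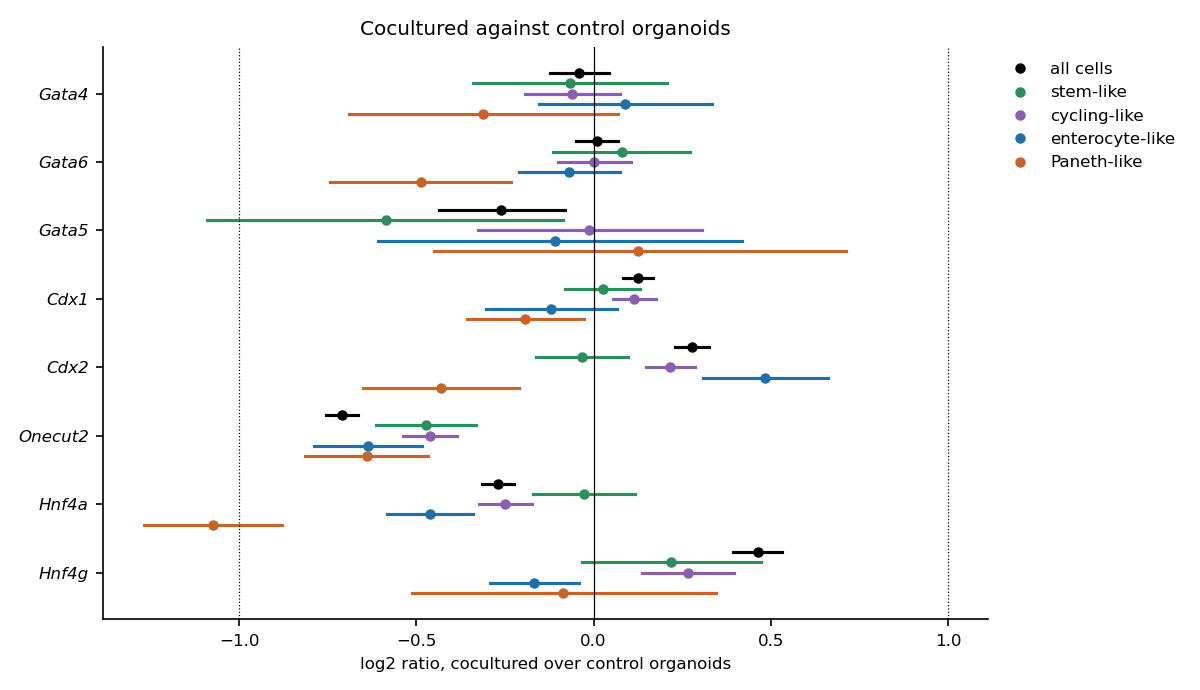
Cocultured against control organoids: log2 ratio of each factor over all kept cells and within Paneth-like, cycling-like, enterocyte-like and stem-like cells, with 95% intervals for counting error and dotted lines at 2-fold. Onecut2 lies under 0 in every class (-0.46 to -0.64), and Hnf4a in Paneth-like cells (-1.07) is the single value past 2-fold before the median of all genes in that class (-0.25) is taken off.

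Organoid classes ordered the factors much as the tissue did for some genes. Onecut2 was highest in enteroendocrine-like cells (323 CPM, interval 286 to 362, 27 cells) and Hnf4g in enterocyte-like cells (142 CPM, 239 cells). Cdx1 had 206 CPM in cycling-like, 205 CPM in stem-like and 68.1 CPM in enterocyte-like cells. A cluster of 117 organoid cells without a name, led by Ly6d and Dynap, had the lowest levels of both CDX factors, with 28.9 CPM of Cdx1 and 24.2 CPM of Cdx2, and of Hnf4g (16.4 CPM), together with 200 CPM of Onecut2 and 148 CPM of Hnf4a.

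Among 30 other transcription factors of the gut epithelium, 27 had enough UMIs in the tissue cells, and 7 were past 2-fold higher in the small and 5 in the large intestine (median log2 ratio 0.16), 12 in all, against 26.2% of all genes. Creb3l3, a factor of lipid metabolism, had 61.6 against 0.143 CPM (log2 ratio 8.76) and Maf, a factor of enterocyte maturation, 117 against 7.11 CPM (4.04). Zfpm1, a cofactor of GATA proteins, had 28.4 against 2.98 CPM (3.25). In the sections the same list gave 6 higher in the small and 5 in the large intestine of 27 (31.5% of all genes in either direction). Between ileal-type and proximal-type enterocyte-like cells, 6 of 25 were higher in the ileal and 3 in the proximal type (8.43% of all genes in either direction). Of the 6, Foxa2 rested on 14 UMIs in 1 ileal-type cell, Foxa3 on 10 UMIs in 3 cells and Foxa1 on 17 UMIs in 14 cells. Creb3l3 (86.8 against 270 CPM, log2 ratio -1.63) and Zfpm1 (10.6 against 31.3 CPM, -1.57) were higher in the proximal type, the type with more Gata4 and Onecut2. Ehf (119 against 46.7 CPM, log2 ratio 1.34) and Nr1h4 (111 against 49.6 CPM, 1.16) were higher in the ileal type. In the organoids 2 of 26 were past 2-fold, a share near the 8.77% of all genes, both higher in coculture: Isx, an intestine-specific homeobox factor (14.9 against 4.85 CPM), and Onecut3 (1.38 against 0.485 CPM).

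The factors were last compared by their pattern over the 13 named epithelial classes of the 2 tissues (7 small and 6 large intestinal), with Pearson's r of log2(CPM + 1) among 11118 genes. These are descriptions, since the classes of a tissue share a library. The genes most like Gata4 were Onecut2 (r = 0.99), Lars2 (0.98) and Fam234b (0.95), and those most like Onecut2 were Gata4 (0.99), Lars2 (0.98) and Fam234b (0.97). Gata5 was closest to Lars2 (0.96), Fam234b (0.96) and Myrf (0.95). These 3 factors follow the tissue more than the class, and r was 0.94 for Gata5 with either of the others. Lars2 also led an unnamed organoid cluster of 136 shallow cells (median 1647.5 UMIs). It was among the 10 leading genes of an unnamed large intestinal cluster with a median of 1328.5 UMIs. The part of library quality in the likeness to Lars2 was not tested. Gata6 was closest to Tead3 (0.97), Dhx38 (0.96) and Ocln (0.95). Cdx1 was closest to Rnf113a2 (0.98), Prickle3 (0.97) and Trmt10b (0.97), and Cdx2 to Gnl1 (0.96), Adck5 (0.95) and G6pdx (0.95). Hnf4a was closest to Chmp4c (0.92), Tprkb (0.92) and Npepps (0.91), and Hnf4g to Arhgap27os2 (0.96), Agmo (0.94) and Tmem41a (0.94). Between members, r was 0.84 for Hnf4a with Hnf4g and with Gata6, 0.60 for Cdx1 with Cdx2, and -0.44 for Cdx1 with Onecut2.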

How the data were processed

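Gene by barcode matrices of 4 droplet single-cell and 4 Visium libraries of mouse intestine were used. Their values are raw UMI counts, made with Cell Ranger 6.0.1 per the submitters' processing notes and Space Ranger 1.2.1 per the file headers, and deposited by the authors with no normalization. The notes name mm10; the annotation release and whether counting used strand are not given in the sources used here. Here, cells in which 500 genes or more were found and mitochondrial UMIs made up no more than 20%, and spots with at least 500 UMIs were kept, and likely doublets (Scrublet, 0.8% per 1000 cells) were removed. Clusters (scanpy 1.11.5, Leiden resolution 1) were named from marker lists; enterocyte-like and Paneth-like names were allowed only in small intestine and organoids, and colonocyte-like only in large intestine, a rule set after the clusters were seen. Counts were summed per library, class or section. A gene was past 2-fold with an absolute log2 ratio of at least 1 and at least 10 UMIs in the higher group; for this call and for medians, counts under 3 were set to 3, and no ratio was given where both were at or under 3. A printed ratio with 1 or 2 UMIs is as counted. Intervals are 95%: exact Poisson, exact for a ratio of 2 Poisson counts, or exact binomial (Clopper-Pearson), and cover counting error only. Named list genes are the up to 4 with the largest absolute log2 ratio among those with at least 100 UMIs; a gene of the list of other gut factors that met this rule is not reported here. Lists of other cell types served as checks. The members and lists were chosen with earlier results of these data known. The ratio and the interval were tested on simulated data. Promoters are from RefSeq (GRCm38.p6). Other settings tried were the cell filters, doublets kept, scalings, the epithelial gate, clustering resolution and left-out sections.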

Additional observations from a re-analysis of the deposited data

Results flagged for a closer look

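For 2 of the 8 factors, the small over large intestine ratio had opposite signs in the dissociated Epcam-positive cells and in the Visium sections. For Cdx2 the log2 ratio was -0.36 in the cells and 1.13 in the sections. For Hnf4a it was 0.94 in the cells and -0.42 in the sections. Neither sign changed under any of the 10 alternatives tried for the cells or the 11 tried for the sections, leaving out each section among them, but centred on the median of all genes the Cdx2 ratio in the cells was only -0.08. The difference between the assays was not tested, since each has 1 library or technical duplicates per tissue. The values that move with it are the sort for stem cells in the dissociated libraries, the muscle content of the small intestinal sections, and the ileal genes, which were several times higher in the sections than in the cells (10116 and 10054 CPM against 2164 CPM); their part was not tested.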

How the results depend on the processing

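No paired analysis was possible because no result comes from a test and the section numbers mark technical duplicates of separate tissues. Of 44 alternative values for the counts of factors past 2-fold, 38 stayed within 1.5 times and 6 did not. Between Epcam-positive cells of the tissues the count was 4 to 5, and between the sections 5 to 6, with 6 to 6 when a section was left out. Between organoid conditions it moved from 0 to 1 in Paneth-like cells alone, a setting chosen after the data were seen. Between ileal-type and proximal-type cells it moved from 2 to 1 when every Epcam-positive cell was split. Along the mucosal axis, without thinning, it moved from 0 to 1 and from 0 to 2 in the small intestinal sections, and from 1 to 2 in the first large intestinal section, where division into 4 parts also gave 2. The cause was not tested. Single ratios changed sign among 12 alternatives for 6 factors in the organoids (Gata6 in 4; Gata4, Gata5, Cdx1, Cdx2 and Hnf4g in 2 each), and for Onecut2 and Hnf4a in 0. Gata5 in the sections ranged from a log2 ratio of 7.55 without the first to 9.20 without the second large intestinal section, and Onecut2, with counts under 3 set to 3, from 2.93 to 4.31 over all alternatives. In the single-cell comparisons, with 1 library per group, counting error is the only error measured. The spread between the sections of a tissue is that of technical duplicates. In the sections, Gata4 and Onecut2 rest on 81 and 31 UMIs in the small intestine.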
